A study of Mus musculus with 104 samples.

Results

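The transcriptome of the striatum was compared between 8 BAC-CAG and 8 wild-type (WT) mice at 12 months of age. All striatal libraries of the BAC-CAG colony at that age were taken, by the genotype in their titles, which gave 16 of the 104 libraries of the series. BAC-CAG mice carry the human huntingtin gene with an expanded CAG repeat on a bacterial artificial chromosome (BAC), a large genomic insert that keeps the gene's own regulatory sequence, and their controls were WT littermates. Both groups were on the FvB background and held 4 females and 4 males each. The transgene comes on top of normal mouse huntingtin, and all transgenic mice are of 1 line. The same question was asked at 6 months (8 BAC-CAG and 8 WT) and 2 months (6 and 6), and at 12 months in BACHD mice (4 and 4), an older BAC line on FvB whose human HTT carries a CAG repeat interrupted by CAA codons. The cortex of the same 12-month animals was sequenced as well. All mice were perfused with saline buffer before dissection.

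The 16 libraries held 27.4 to 40.9 M counts (mean 36.0, SD 3.51), with 36.2 ± 3.21 M in BAC-CAG and 35.8 ± 3.99 M in WT (SD, n = 8 each). As a check of the tissue label, Actn2, an SPN identity gene, was at 70.8 CPM or more in each of the 16 libraries and at 8.02 to 13.7 CPM in the cortex of the same mice (CPM here and below are reads of the gene scaled to library size with TMM factors). Penk was at 539 CPM or more in striatum and at most 93.0 CPM in cortex.

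Huntington's disease is caused by an expanded CAG repeat in huntingtin and hits the striatum first. Most striatal neurons are spiny projection neurons (SPNs), inhibitory cells that answer dopamine and glutamate. The indirect-pathway SPNs carry the D2 dopamine receptor and the adenosine receptor Adora2a and make enkephalin, and the direct-pathway SPNs carry the D1 receptor and make substance P and dynorphin. A falling RNA level of the genes that mark SPN identity is a known feature of mouse models with a long repeat.

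In the 12-month BAC-CAG striatum 60 of 18246 tested genes differed from WT at an adjusted p under 0.05 (edgeR quasi-likelihood test, Benjamini-Hochberg adjustment over all tested genes), which is 0.329% of the genes. Of these genes 42 fell (0.23% of the tested genes) and 18 rose (0.0987%). The fallen genes held 4 members of the SPN identity list (Pcp4, Actn2, Rgs4, Cnr1) and the enkephalin precursor Penk, and the risen genes were led by Msantd1, which overlaps the end of mouse Htt. The changes were small, with a median size of 0.51 on the log2 scale over the 60 genes, 36 genes changing by less than 1.5-fold and 10 by 2-fold or more. At an unadjusted p under 0.05 there were 2225 genes (12.2% of those tested), 1130 lower (6.19%) and 1095 higher (6.0%). The libraries of the 2 genotypes did not overlap for 29 genes (0.159% of those tested), 22 lower (0.121%) and 7 higher (0.0384%), and 23 of these 29 were among the 60. All 60 genes kept their direction in females alone and in males alone. They were picked in these same libraries, so nothing is read from that count.

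How many genes passed depended on the tool and on single libraries. DESeq2 called 274 genes (1.57% of the 17504 with an adjusted p), among them 59 of the 60. BAC-CAG replicates 2 and 7 had raised levels of cortical excitatory neuron markers, and without both of them 15 genes passed (0.0812% of those tested), 14 of which were among the 60. Those 14 were Msantd1, Pkp2, Cdk19, Pcp4, Actn2, Il33, Penk, Sec14l3, Fat1, Sbsn, Cd59a, Neto2, Phex and Smoc1, and the 15th was Tmem101. Leaving out 1 library at a time gave 39, 53, 26, 20, 102, 17, 32 and 246 genes without BAC-CAG replicates 1 to 8. It gave 24, 73, 33, 34, 24, 30, 27 and 64 genes without WT replicates 1 to 8. In all 16 such fits 17 genes passed: Msantd1, Pkp2, Cdk19, Pcp4, Actn2, Il33, Penk, Sec14l3, Fat1, Sbsn, Cd59a, 2610316D01Rik, Odf4, Erbin, Neto2, Tmc3 and Ddit4l.

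The 4 SPN identity genes that fell are shown by the 250 bases before their start, because these members of the list fell together. The sequences are from RefSeq on GRCm38.p6, on the strand of the gene, with each CACGTG E-box in capitals. For Cnr1, which has 3 starts in the table, the one with an E-box was printed. Their positions were chr13:12340733-12340982 (minus strand) for Actn2, chr4:33924394-33924643 (plus) for Cnr1, chr16:96467356-96467605 (plus) for Pcp4 and chr1:169747643-169747892 (minus) for Rgs4.
Actn2: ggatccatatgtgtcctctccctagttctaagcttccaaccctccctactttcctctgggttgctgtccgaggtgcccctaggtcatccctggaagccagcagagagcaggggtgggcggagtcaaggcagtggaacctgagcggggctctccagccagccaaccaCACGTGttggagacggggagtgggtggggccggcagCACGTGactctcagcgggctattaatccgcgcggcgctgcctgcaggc
Cnr1: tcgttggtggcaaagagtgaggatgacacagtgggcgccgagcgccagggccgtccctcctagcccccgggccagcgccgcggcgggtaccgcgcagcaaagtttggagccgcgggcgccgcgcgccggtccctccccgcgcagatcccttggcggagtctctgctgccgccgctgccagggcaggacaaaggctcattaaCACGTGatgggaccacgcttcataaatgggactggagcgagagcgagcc
Pcp4: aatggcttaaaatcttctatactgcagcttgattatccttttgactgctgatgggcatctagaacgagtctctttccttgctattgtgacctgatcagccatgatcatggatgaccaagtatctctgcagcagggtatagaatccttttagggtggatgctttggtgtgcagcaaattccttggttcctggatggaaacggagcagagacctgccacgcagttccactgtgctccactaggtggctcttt
Rgs4: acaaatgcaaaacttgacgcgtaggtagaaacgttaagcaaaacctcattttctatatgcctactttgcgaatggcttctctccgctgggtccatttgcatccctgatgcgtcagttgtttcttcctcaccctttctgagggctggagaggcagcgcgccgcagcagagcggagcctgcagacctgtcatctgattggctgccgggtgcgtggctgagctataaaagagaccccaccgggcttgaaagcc
The Actn2 window held 2 E-boxes, starting 84 and 48 bases before the gene's start, the Cnr1 window 1, starting 49 bases before it, and the Pcp4 and Rgs4 windows none. Of the 60 genes 46 had an entry, with a window of 300 bases that ended 50 bases after the start, and Penk and Pkp2 had none. On either strand, the E-box CACGTG was found for 4 of 33 lower genes (Actn2, Arl3, Atp1b3, Cnr1) and 1 of 13 higher genes (Nop2), against 11.1% of the 11980 tested genes with an entry and 7.15% of all 32851 promoter windows. The cAMP response element TGACGTCA was found for none of them, against 3.45% of the tested genes and 1.79% of all windows. An AP-1 element, TGACTCA or its complement TGAGTCA, was found for Sbsn alone, against 4.52% of the tested genes and 5.2% of all windows. No one of the 3 motifs contains another.

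Huntingtin itself was measured first. Htt counts in BAC-CAG libraries ran from 220.1 to 257 CPM with a median of 242, and in WT from 212 to 234 with a median of 216. The 2 groups overlapped, with means of 242 ± 11.2 and 219 ± 7.24 CPM (SD, n = 8 each). The difference of 23.3 CPM had a 2-sided exact permutation p of 0.0006216, and in the test across all genes the log2 change was 0.15 (SE 0.04) with an adjusted p of 0.0922. The table holds mouse genes only. Whether a human HTT sequence was among the alignment references is not given in the sources used here, so reads of the human insert that align to mouse Htt may be part of these values, and the difference cannot be read as one of mouse Htt RNA.

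Msantd1, a gene for a protein with a Myb/SANT-like domain, lies at chr5:34908012-34923839 on GRCm38 and overlaps the end of Htt (chr5:34761740-34912534) on the same strand, so reads in the overlap cannot be assigned to 1 of them with certainty. Its level ran from 9.6 to 28.2 CPM in BAC-CAG libraries with a median of 13.4, and from 2.33 to 3.46 CPM in WT with a median of 2.83. Every BAC-CAG library lay above every WT library, and 2 female BAC-CAG libraries (replicates 4 and 6, at 28.2 and 27.9 CPM) stood above the other 6, which did not pass 14.2 CPM. The log2 change was 2.44 (SE 0.21, edgeR adjusted p = 1.72e-05). Msantd1 was the one gene that also passed the adjusted threshold at 2 months, at 6 months, in BACHD striatum and in the 12-month cortex, with log2 changes of 2.31, 2.16, 3.45 and 1.96. Whether reads of the human insert are counted under Msantd1 was not tested, so these values are not shown to be those of the mouse gene alone. In those comparisons 1 gene (0.00558% of those tested), 2 genes (0.0113%), 6 genes (0.0378%) and 1 gene (0.00557%) passed.

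**Figure D1:**
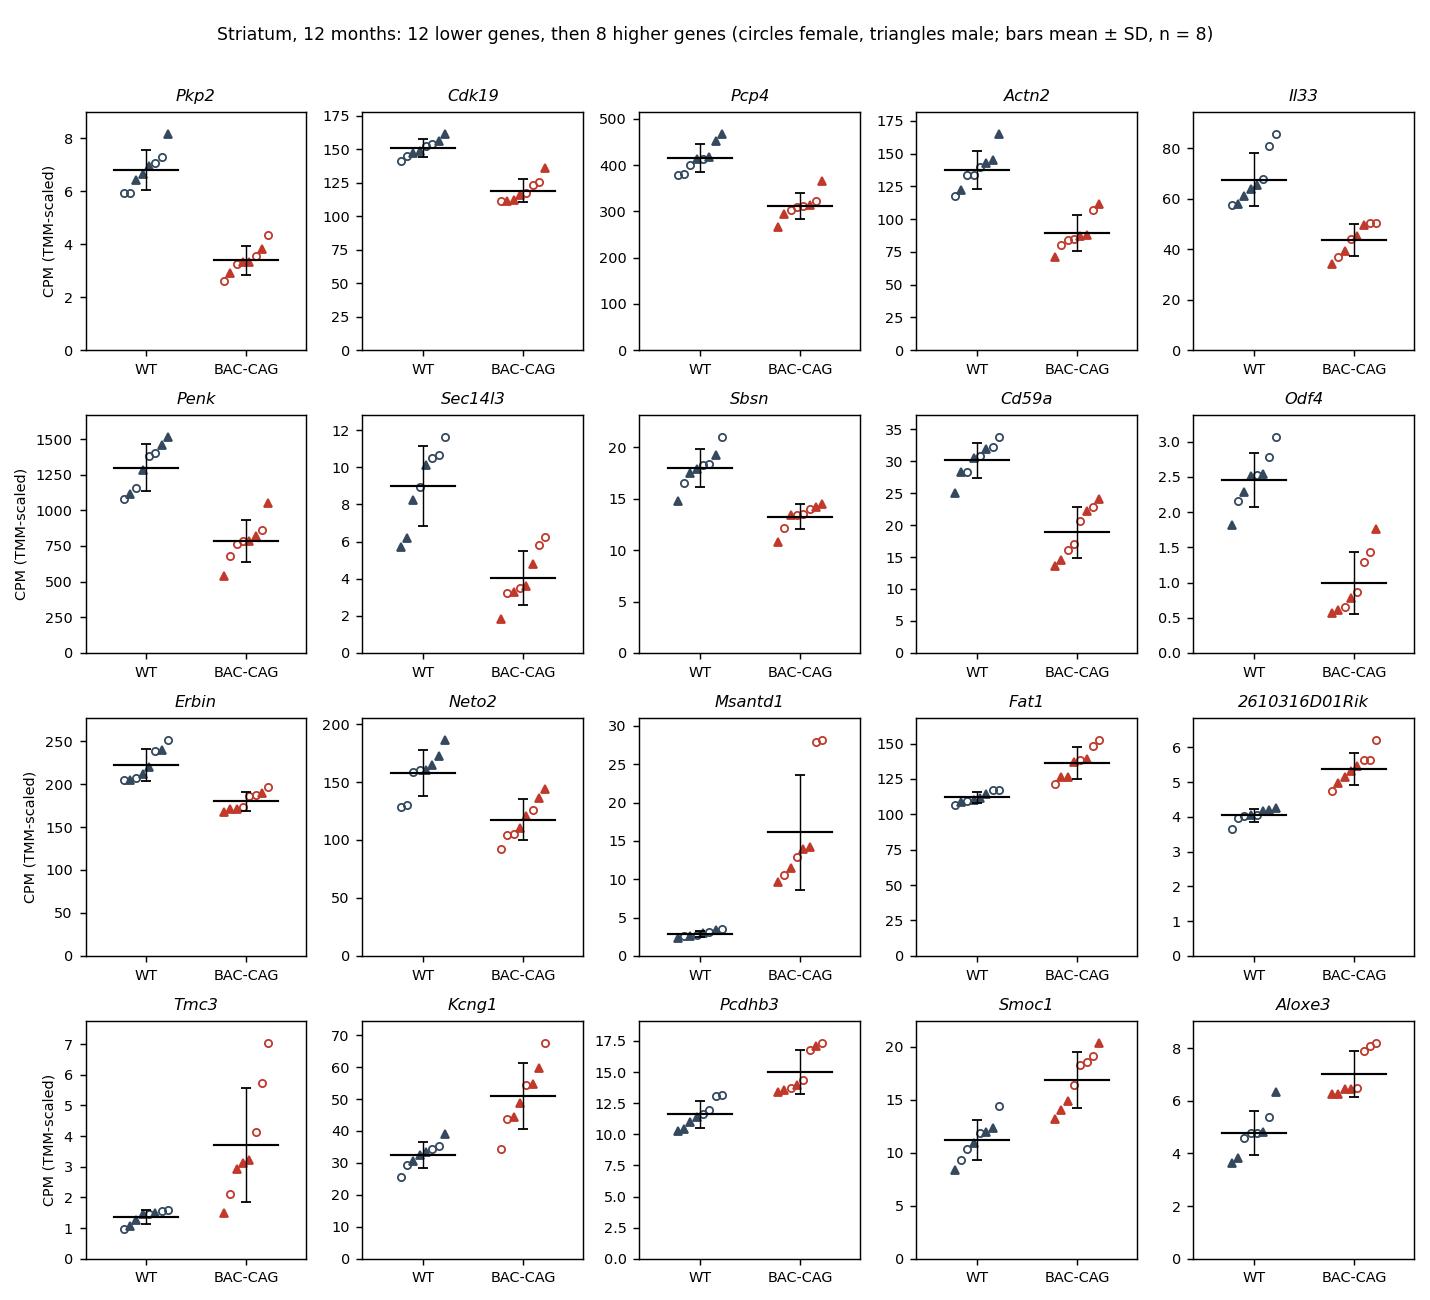
Level in CPM (TMM-scaled, vertical axis) of the 12 fallen and 8 risen genes with the smallest p among called genes of at least 1 CPM, in the 16 striatal libraries. Circles are females and triangles males, 1 point per library, and bars are mean ± SD of 8 libraries. Pkp2 is lower in every BAC-CAG library than in any WT library, while Tmc3 and Kcng1 overlap between the groups.

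Among the 4 SPN identity genes that passed, the largest fall was that of Actn2, alpha-actinin-2, an actin cross-linker of dendritic spines and of the muscle Z-disc. Actn2 ran from 70.8 to 112 CPM in BAC-CAG libraries (median 85.8) and from 118 to 165 CPM in WT (median 137). The groups did not overlap, and the log2 change was -0.62 (SE 0.09, edgeR adjusted p = 0.00429). Pcp4, a small peptide that binds calmodulin, ran from 266 to 366 CPM in BAC-CAG and from 379 to 468 CPM in WT, with medians of 311 and 414 and again no overlap. Its log2 change was -0.42 (SE 0.06, edgeR adjusted p = 0.00396).

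Rgs4, which shortens signalling through Gi and Gq proteins, ran from 310.4 to 382 CPM in BAC-CAG libraries (median 342) and from 375 to 512 CPM in WT (median 436). The highest BAC-CAG library thus lay above the lowest WT library, and the log2 change was -0.34 (SE 0.06, edgeR adjusted p = 0.0155). Cnr1, the CB1 cannabinoid receptor, ran from 181 to 282 CPM in BAC-CAG (median 227) and from 239.9 to 370.2 CPM in WT (median 345). Its groups overlapped too, and its log2 change of -0.48 (SE 0.09) had an adjusted p of 0.0372 in edgeR. Cnr1 passed in 5 of the 16 fits that left out 1 library, and Rgs4 in 14.

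Of the 40 genes of the SPN identity list, 39 had a log2 change below 0, against 49.0% of all tested genes, and the list's median was -0.26 against 0.00 for all tested genes. A total of 4 members passed the adjusted threshold, all lower (0.23% of all tested genes), and 27, or 67.5%, had an unadjusted p under 0.05 and were lower (6.19% of all tested genes), while none did so in the other direction. Among the members that did not pass were Arpp21, a cAMP-regulated phosphoprotein, with medians of 845 CPM in BAC-CAG and 1202 CPM in WT (log2 -0.40, edgeR adjusted p = 0.0623), and Itpr1, the inositol trisphosphate receptor, with 1157 and 1482 CPM (log2 -0.28, edgeR adjusted p = 0.0791). Summed over the list, the level ran from 14083 to 22281 CPM in BAC-CAG libraries and from 18761 to 26320 CPM in WT, so the groups overlapped. The lowest sum, 14083 CPM, was that of BAC-CAG replicate 7. Without BAC-CAG replicates 2 and 7 the median was -0.19, at 6 months it was -0.12, at 2 months -0.08 and in BACHD striatum 0.00. In tissue RNA, fewer cells of a type and less RNA per cell cannot be told apart.

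Of the indirect-pathway genes Penk, the enkephalin precursor, fell furthest. It ran from 539 to 1048 CPM in BAC-CAG libraries (median 785) and from 1079 to 1516 CPM in WT (median 1332), without overlap. The log2 change was -0.72 (SE 0.11, edgeR adjusted p = 0.00694), and without BAC-CAG replicates 2 and 7 it was -0.63. Penk was the one member of 8 tested that passed (0.329% of all tested genes). The other receptors of these cells had log2 changes of -0.48 (Adora2a, an adenosine receptor), -0.38 (Gpr6, an orphan receptor) and -0.32 (Drd2, the D2 dopamine receptor), with edgeR adjusted p of 0.203, 0.163 and 0.224. Of the 8 members 6 were below 0, against 49.0% of all tested genes. The 2 above 0 were Grik3, a kainate receptor subunit, at 0.03 and Ptprm, a receptor phosphatase, at 0.03. The list's median was -0.22, and the delta opioid receptor Oprd1 had a log2 change of -0.12.

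The direct-pathway list had a median of 0.00, with 5 of its 10 members below 0 (49.0% of all tested genes). None of the 10 passed the adjusted threshold. At an unadjusted p under 0.05, 2 were lower and 1 higher (6.19% and 6.0% of all tested genes). Drd1, the D1 dopamine receptor, ran from 139 to 209 CPM in BAC-CAG libraries and from 156 to 283 CPM in WT (log2 -0.27, edgeR adjusted p = 0.3). Tac1, the substance P precursor, had a log2 change of 0.12 and an adjusted p of 0.719. Whether the 2 pathways differ from each other was not tested.

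In dopamine and cAMP signalling 1 of 37 tested genes passed (Rgs4, lower), against 0.329% of all tested genes. At an unadjusted p under 0.05, 15 were lower and 2 higher (6.19% and 6.0% of all tested genes), and the median was -0.12. Ppp1r1b, which encodes the phosphatase inhibitor DARPP-32, ran from 950.4 to 1779.9 CPM in BAC-CAG libraries and from 1419 to 2149.7 CPM in WT (log2 -0.41, edgeR adjusted p = 0.111). Pde10a, the striatal phosphodiesterase, ran from 960.1 to 1796 CPM and from 1412 to 2144 CPM (log2 -0.44, edgeR adjusted p = 0.109). Of 38 calcium and calmodulin genes 1 passed (Pcp4), against 0.329% of all tested genes. At an unadjusted p under 0.05, 12 were lower and 1 higher (6.19% and 6.0% of all tested genes), and the median was -0.10.

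Several fallen genes encode proteins of synapses and membranes. Neto2, an auxiliary subunit of kainate receptors, ran from 92.3 to 144 CPM in BAC-CAG libraries (median 116) and from 128 to 187 CPM in WT (median 160.1), with overlap (log2 -0.43, SE 0.07, edgeR adjusted p = 0.0152). Shank3, a scaffold of the postsynaptic density, had medians of 496 and 641 CPM (log2 -0.33, edgeR adjusted p = 0.0341) and passed in 5 of the 16 fits that left out 1 library. Erbin, a scaffold that binds the ErbB2 receptor, ran from 168 to 197 CPM in BAC-CAG and from 204 to 252 CPM in WT, without overlap (log2 -0.30, SE 0.05, edgeR adjusted p = 0.0152). No member of the lists of glutamate receptors (25 tested) and of GABA synthesis, transport and receptors (20 tested) passed the adjusted threshold; 4 and 3 of them had an unadjusted p under 0.05, against 12.2% of all tested genes.

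Pkp2, plakophilin 2, an armadillo protein of desmosomes, was the fallen gene with the smallest p. It ran from 2.6 to 4.36 CPM in BAC-CAG libraries (median 3.32) and from 5.94 to 8.17 CPM in WT (median 6.79), so that the highest BAC-CAG library lay well under the lowest WT library. The log2 change was -1.0 (SE 0.10, edgeR adjusted p = 0.000113). In the desmosome and adherens junction list Pkp2 was the 1 of 20 tested genes that passed (0.329% of all tested genes). At an unadjusted p under 0.05, 3 members were lower and 2 higher (6.19% and 6.0% of all tested genes). The list's median was 0.03. Pkp2 also passed at 6 months and in BACHD striatum, with log2 changes of -1.03 and -1.59, and its log2 change at 2 months was -0.97.

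Cdk19, a kinase of the Mediator complex, fell from a WT range of 141 to 162 CPM to a BAC-CAG range of 111 to 136 CPM, with medians of 151 and 117. The groups did not overlap, and the log2 change was -0.34 (SE 0.04, edgeR adjusted p = 0.00334).

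A pair of fallen genes acts in immune signalling. Il33, a cytokine released from damaged cells, ran from 34.2 to 50.4 CPM in BAC-CAG libraries (median 44.7) and from 57.6 to 85.7 CPM in WT (median 64.7), without overlap (log2 -0.62, SE 0.09, edgeR adjusted p = 0.0068). Cd59a, an inhibitor of the complement membrane attack complex, ran from 13.6 to 24.1 CPM and from 25.1 to 33.8 CPM, without overlap (log2 -0.67, SE 0.11, edgeR adjusted p = 0.0144). No marker of the microglia list passed among 22 tested, and the list's median was -0.14. Of these markers 11 were lower at an unadjusted p under 0.05 (6.19% of all tested genes). The oligodendrocyte and astrocyte lists had medians of -0.18 and -0.12, and the oligodendrocyte precursor list 0.01. Which cells carry the Il33 and Cd59a RNA was not tested.

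Other fallen genes are better known from other tissues. Odf4, an outer dense fibre gene of sperm tails, ran from 0.567 to 1.76 CPM in BAC-CAG libraries and from 1.81 to 3.07 CPM in WT (log2 -1.29, edgeR adjusted p = 0.0144). Sec14l3, of the SEC14 lipid-binding family, had medians of 3.56 and 9.52 CPM with overlap (log2 -1.16, edgeR adjusted p = 0.0127), and Sbsn, suprabasin, a secreted protein of epidermis, had medians of 13.5 and 18.1 CPM without overlap (log2 -0.44, edgeR adjusted p = 0.0144). Phex, a membrane endopeptidase that regulates phosphate, had medians of 1.36 and 3.47 CPM (log2 -1.13, edgeR adjusted p = 0.0152).

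Of the chaperone and stress genes 1 of 35 tested passed (0.329% of all tested genes). This was Ddit4l, an inhibitor of mTORC1 signalling, which ran from 5.79 to 14.4 CPM in BAC-CAG libraries and from 15.6 to 23.8 CPM in WT, without overlap (log2 -1.03, SE 0.17, edgeR adjusted p = 0.0152). The other fallen genes were Abhd11os, Arl3, Atp1b3, Car2, Col6a4, Dek, Gm12500, Gm4353, Gm42756, Hacd2, Igfbp4, Myo5c, Nrep, Olfr1349, Pipox, Ppp1r16b, Rnase4, Sgk3, Slc16a6, Tmem114, Traip, Trim59, Ttyh1, Zcwpw1 and 1700001O22Rik. Car2, carbonic anhydrase 2, had medians of 172 CPM in BAC-CAG and 251 CPM in WT. Abhd11os is named as an antisense transcript, and reads shared with its sense partner were not separated here.

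Fat1, an atypical cadherin, was the risen gene with the smallest p after Msantd1. It ran from 121 to 153 CPM in BAC-CAG libraries (median 138) and from 107 to 117 CPM in WT (median 111), without overlap (log2 0.28, SE 0.05, edgeR adjusted p = 0.0144). Kcng1, a silent subunit of voltage-gated potassium channels, ran from 34.3 to 67.7 CPM and from 25.6 to 39.1 CPM, with overlap (log2 0.65, SE 0.11, edgeR adjusted p = 0.0171). It was the one gene of 64 potassium channel genes tested that passed (0.329% of all tested genes). The list held 8 higher and 8 lower genes at an unadjusted p under 0.05, or 12.5% each, against 6.0% and 6.19% of all tested genes.

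Tmc3, of the transmembrane channel-like family, ran from 1.49 to 7.05 CPM in BAC-CAG libraries and from 0.972 to 1.61 CPM in WT. Its 2 highest values were those of BAC-CAG replicates 6 and 4, at 7.05 and 5.74 CPM, the libraries that were also highest in Msantd1. The log2 change was 1.41 (SE 0.24, edgeR adjusted p = 0.0152). Smoc1, a secreted calcium-binding matrix protein, had medians of 17.3 and 11.4 CPM with overlap (log2 0.59, edgeR adjusted p = 0.0235), and Aloxe3, an epidermal lipoxygenase, 6.47 and 4.78 CPM (log2 0.55, edgeR adjusted p = 0.0256).

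Pcdhb3 rose within the clustered protocadherins, the cell-surface recognition proteins whose genes sit in tandem arrays. It ran from 13.4 to 17.4 CPM in BAC-CAG libraries and from 10.2 to 13.1 CPM in WT, without overlap (log2 0.37, SE 0.07, edgeR adjusted p = 0.0188). Of 58 members tested 1 passed (0.329% of all tested genes), and 23 were higher and 4 lower at an unadjusted p under 0.05, or 39.7% and 6.9%, against 6.0% and 6.19% of all tested genes. The median was 0.14, with 16 members below 0, or 27.6%, against 49.0% of all tested genes. The list's median was 0.11 without BAC-CAG replicates 2 and 7, 0.19 in females and 0.03 in males. It was -0.06 at 6 months, -0.01 at 2 months and -0.0005 in BACHD striatum. Members of an array share sequence and can share reads, so single values are uncertain.

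In the sarcomere and actin cross-linking list 4 of 33 tested genes passed, in both directions (0.329% of all tested genes). Tnnt2 (cardiac troponin T), Ttn (titin) and Flnc (filamin C) rose, with log2 changes of 0.51, 0.77 and 0.69 and edgeR adjusted p of 0.0291, 0.0328 and 0.0452, while Actn2 fell. Ttn ran from 2.47 to 5.61 CPM in BAC-CAG libraries and from 1.75 to 2.92 CPM in WT. The list's median was -0.04. Htr2a, the 5-HT2A serotonin receptor, ran from 19.48 to 28.7 CPM in BAC-CAG and from 9.75 to 19.39 CPM in WT (log2 0.61, edgeR adjusted p = 0.0452). The groups thus missed overlap by a narrow margin. The highest Htr2a values were those of BAC-CAG replicates 7 and 2, at 28.7 and 27.7 CPM. Of the 16 fits that left out 1 library, Htr2a, Ttn and Flnc each passed in 5 and Tnnt2 in 7. The other risen genes were Cox6b2, Dscaml1, Nop2, Pcdh20, Slc30a2, Zfp488 and 2610316D01Rik.

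**Figure D2:**
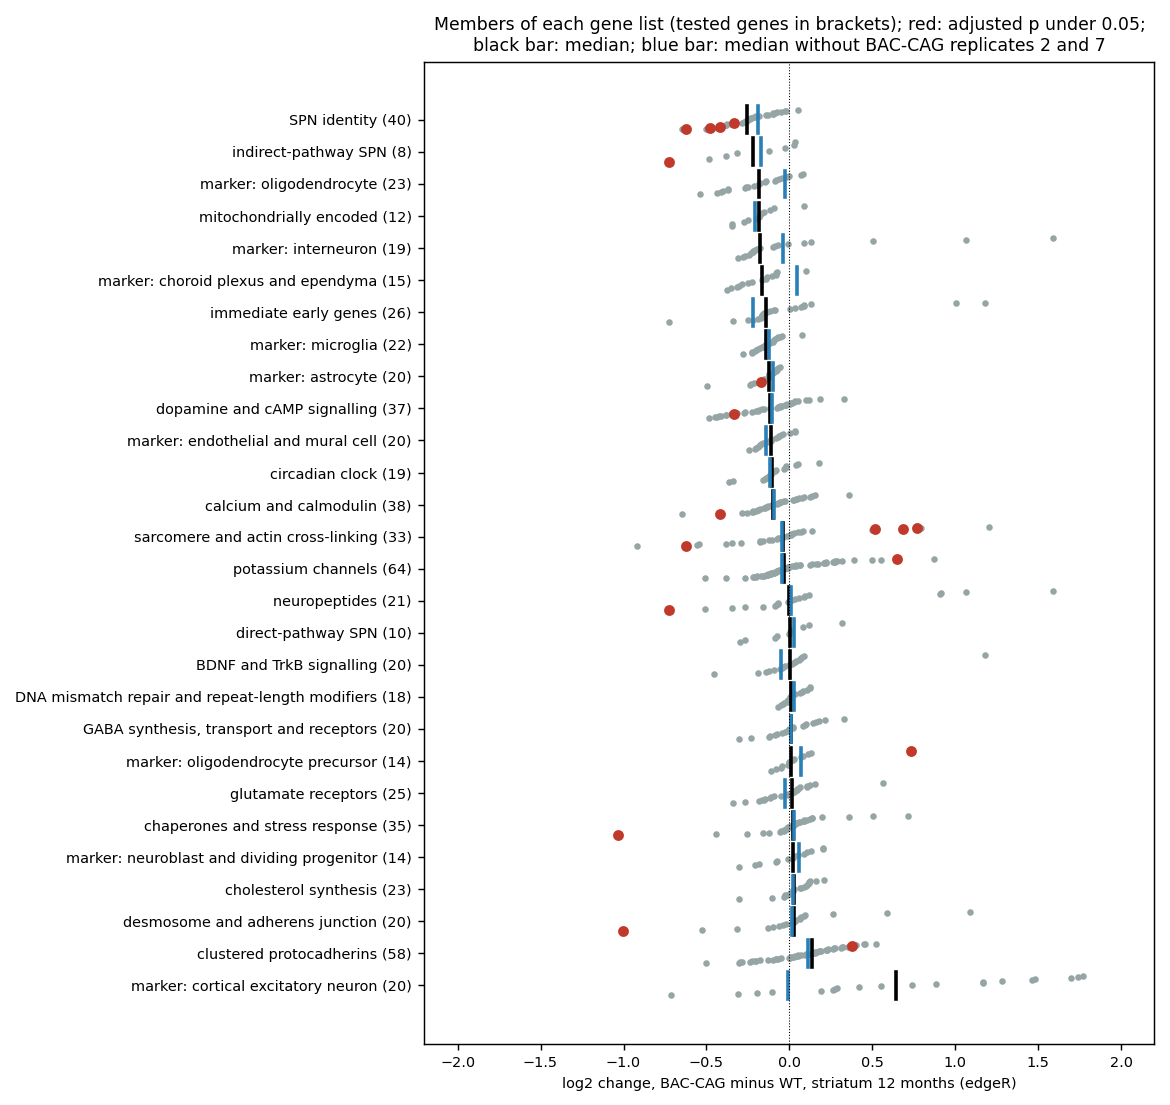
Log2 change from WT to BAC-CAG (horizontal axis) of the tested members of 28 gene lists, 1 list per line, with the number tested in brackets. The SPN identity list lies almost wholly below 0, and the cortical excitatory neuron markers have a median of 0.64 with all libraries (black) and -0.01 without BAC-CAG replicates 2 and 7 (blue).

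Markers of other cells moved with these results in part. The 20 cortical excitatory neuron markers summed to between 665 and 2401 CPM in BAC-CAG libraries and between 617 and 983 CPM in WT, and none of them was at 0 in all libraries. BAC-CAG replicates 7 and 2, both male, had 2401 and 1735 CPM and the other 6 at most 853 CPM. No marker of this list passed the adjusted threshold. At an unadjusted p under 0.05, 3 were higher and 1 lower (6.0% and 6.19% of all tested genes). The list's median of 0.64 became -0.01 without those 2 libraries. With the cortical marker score as a covariate 9 genes passed (0.0493% of those tested), all of them among the 60: Msantd1, Pkp2, Cdk19, Pcp4, Actn2, Il33, Penk, Sec14l3 and Smoc1.

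**Figure D3:**
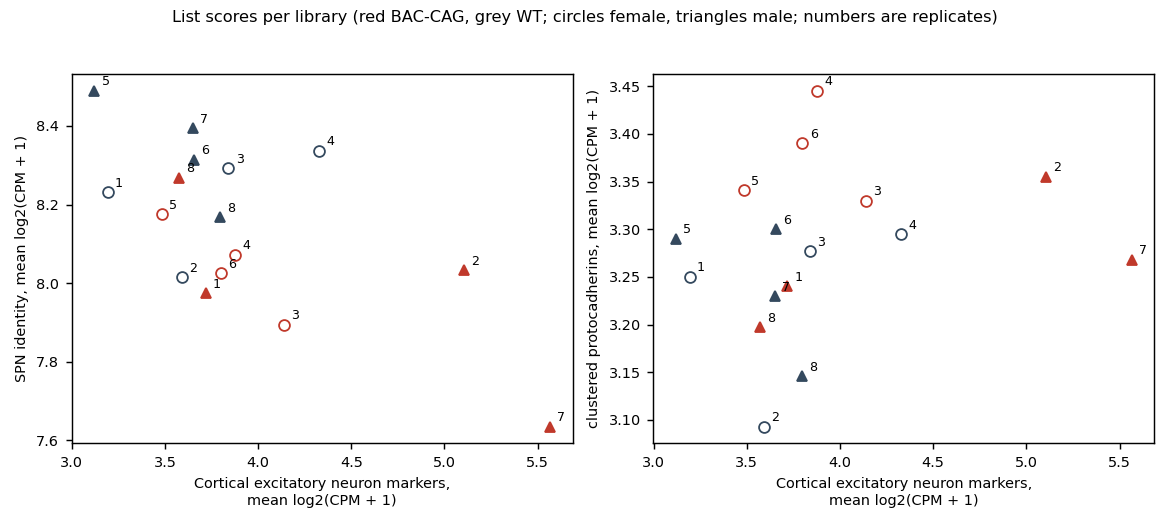
Mean log2(CPM + 1) of the SPN identity list (left) and the clustered protocadherins (right) against that of the cortical excitatory neuron markers, 1 point per striatal library. BAC-CAG replicates 2 and 7 lie to the right, at 5.1 and 5.56, while the other 14 libraries lie between 3.12 and 4.33.

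Astrocyte, oligodendrocyte, microglial and vascular markers had medians below 0. The 14 oligodendrocyte precursor markers had a median of 0.01, with 7 below 0 (49.0% of all tested genes). Of these 14 markers 2 were higher at an unadjusted p under 0.05 (6.0% of all tested genes). A single one, Zfp488, passed the adjusted threshold (0.329% of all tested genes). All 20 astrocyte markers were below 0, against 49.0% of all tested genes, with a median of -0.12. At an unadjusted p under 0.05, 10 of them were lower (6.19% of all tested genes). Ttyh1, a membrane protein of the tweety family, passed (log2 -0.17, edgeR adjusted p = 0.0452). The summed level of the astrocyte markers ran from 7384 to 8071 CPM in BAC-CAG libraries and from 7910 to 8957 CPM in WT. The 23 oligodendrocyte markers had a median of -0.18 with all libraries and -0.02 without BAC-CAG replicates 2 and 7, and ran from 4659 to 9854 CPM against 7544 to 12377 CPM, with none past the adjusted threshold. Microglial markers ran from 644 to 730.0 CPM against 682 to 863 CPM, and endothelial and mural markers (median -0.11) from 582 to 688 CPM against 650.0 to 775 CPM. No marker of these 4 lists was at 0 in all libraries, and the part of these shifts in the fallen genes was not tested.

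In the lists that bear on known features of the disease few genes passed. None of the 18 DNA mismatch repair and repeat-length modifier genes passed, and their median was 0.01. Of these genes 1 had an unadjusted p under 0.05 (12.2% of all tested genes). None of 23 cholesterol synthesis genes (median 0.03), 20 BDNF and TrkB signalling genes (median 0.01), 12 mitochondrially encoded genes (median -0.18) and 19 circadian clock genes (median -0.10) passed. Of the cholesterol synthesis genes 6 were below 0 and 17 above, and of the BDNF and TrkB signalling genes 10 and 10. Of the mitochondrially encoded genes 11 were below 0 and 1 above, and of the clock genes 16 and 3 (49.0% of all tested genes were below 0). At an unadjusted p under 0.05, 33.3% and 26.3% of the mitochondrially encoded and clock genes were lower, against 6.19% of all tested genes. None of them was higher. In the clock list Dbp, an output transcription factor, ran from 116 to 182 CPM in BAC-CAG libraries and from 169 to 200.1 CPM in WT (log2 -0.34, edgeR adjusted p = 0.0551).

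The genotype effect was then compared between females and males. No gene passed for the difference in edgeR, while 1026 of 18246 (5.62%) had an unadjusted p under 0.05, and DESeq2 called 6: Btg2, Fos, Dusp1, Vasn, Arc and Ddr2. The first 4 genes in edgeR were immediate early genes, which neurons switch on within minutes of activity. Fos ran from 5.89 to 8.34 CPM in BAC-CAG females and from 12.5 to 21.6 CPM in WT females. In males the mean was higher in BAC-CAG, with overlap, from 12.1 to 26.9 CPM against 5.59 to 13.5 CPM in WT. BAC-CAG replicates 2 and 7, with raised cortical markers, were among these males, at 26.86 and 12.07 CPM. Male replicates 1 and 8 were at 25.29 and 16.04 CPM. The difference between sexes was not tested without replicates 2 and 7. Replicates 1 and 2 share letter A of the animal code, which no WT male has. Under letter F BAC-CAG 12.07 CPM stood against WT 13.47 and 11.55, and under G 16.04 against 5.606 and 5.586. Among females, letter a has WT mice only and letter c BAC-CAG mice only. Under letter b, which has both, BAC-CAG 5.955 and 6.147 CPM stood against WT 12.5 and 21.07. The part of the letter was not tested, for Fos or for the genes called in the main comparison. The male minus female difference of the log2 change was 2.67 for Fos (SE 0.42, edgeR adjusted p = 0.0769) and 1.86 for Btg2 (SE 0.27, edgeR adjusted p = 0.0653), an antiproliferative early gene. Over the 26 immediate early genes the median log2 change was -0.48 in females and 0.40 in males, and none passed for genotype over both sexes.

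**Figure D4:**
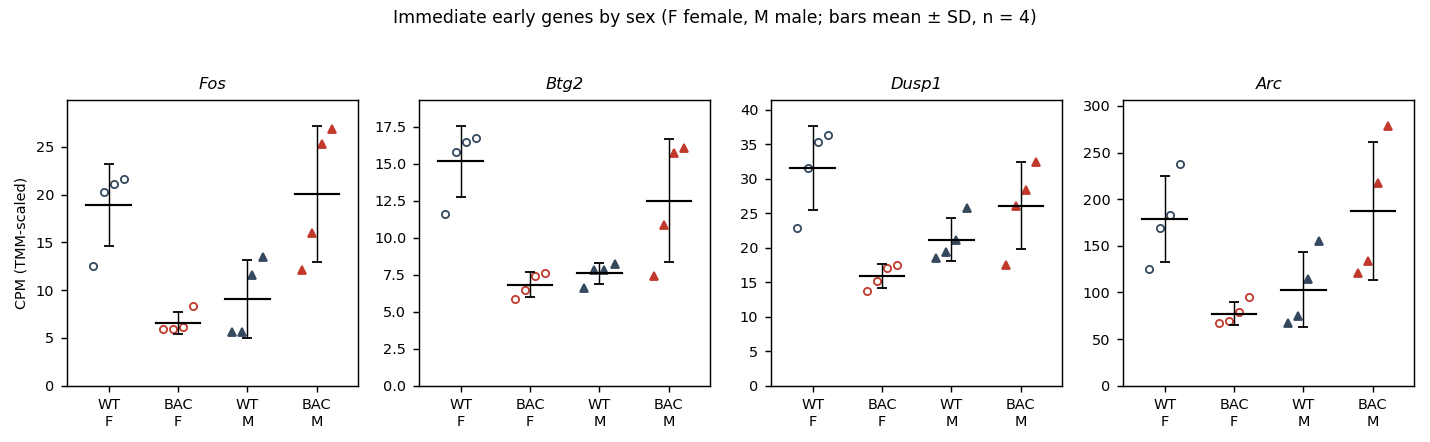
Level in CPM (TMM-scaled) of 4 immediate early genes by genotype and sex, with points for single libraries and bars for mean ± SD of 4. In each gene the BAC-CAG females lie below the WT females, and the mean of BAC-CAG males lies above that of WT males.

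The 60 genes were followed in cohorts with their own controls. At 6 months 58 of 60 had the same direction, against 58.5% of all tested genes, and 33 also had an unadjusted p under 0.05, against 3.48% of all tested genes in that direction and 4.39% in either. The exceptions in direction were Tmem114 and Flnc. In BACHD striatum at 12 months 45 of 51 measured genes had the same direction (50.1% of all tested genes) and 24 also an unadjusted p under 0.05 (2.89%, and 5.12% in either direction). At 2 months the counts were 45 of 59 (54.4%) and 13 (3.59%, and 6.27% in either direction). In the direction of the call, the median log2 change was 0.09 at 2 months, 0.19 at 6 months and 0.20 in BACHD, against 0.51 in the 12-month BAC-CAG striatum, where the genes were picked.

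In all, 7 of the 60 genes had the same direction and an unadjusted p under 0.05 in all 3 of these cohorts: Msantd1, Pkp2, Cdk19, Actn2, Odf4, Phex and Igfbp4. That was 14% of the 50 called genes measured in every cohort, against 0.158% of the 13954 genes tested in all. Actn2, for example, ran from 102.9 to 147 CPM in BAC-CAG and 156 to 211 CPM in WT at 2 months, from 89.5 to 127 and 125 to 179 CPM at 6 months, and from 58.1 to 90.6 and 97.8 to 126 CPM in BACHD. In each of those cohorts except 6 months the transgenic and WT libraries did not overlap. Il33 instead had log2 changes of 0.30 at 2 months, -0.20 at 6 months and -0.62 at 12 months.

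**Figure D5:**
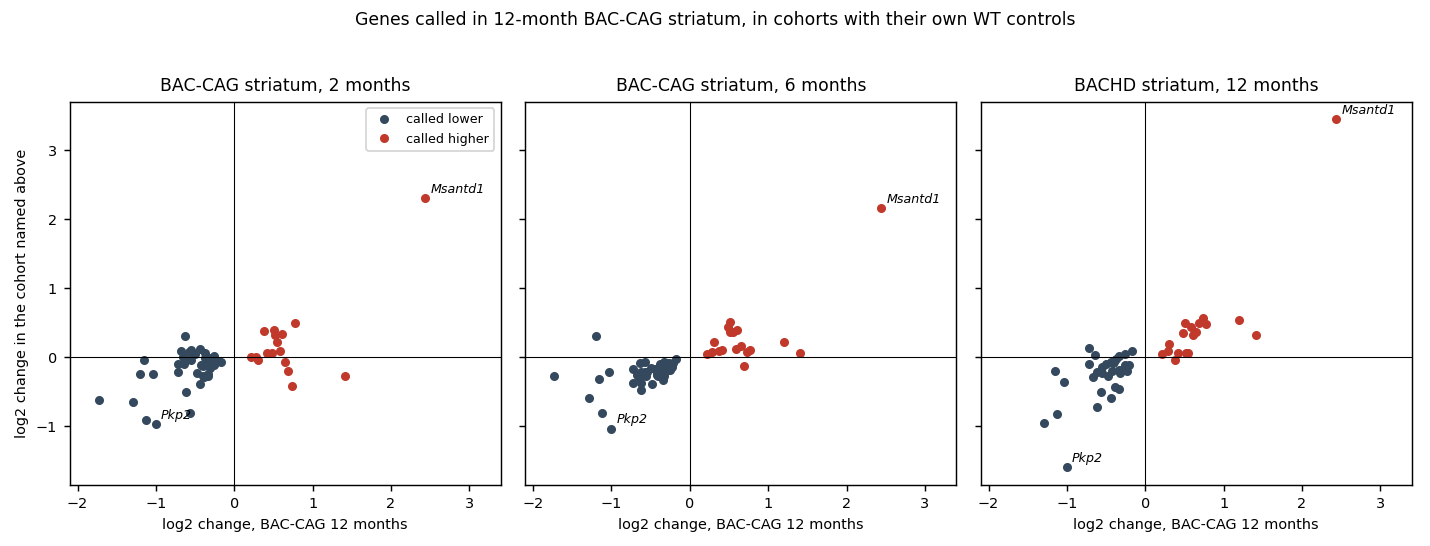
Log2 change of the genes called in 12-month BAC-CAG striatum (horizontal axis) against their log2 change at 2 months, at 6 months and in BACHD striatum (vertical axes), with fallen genes in dark blue and risen genes in red. Msantd1 lies far out in all 3 panels, and most other genes lie closer to 0 on the vertical than on the horizontal axis.

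Tests of the difference between ages called no gene in edgeR (12 against 6 months, 711 of 18770 or 3.79% at an unadjusted p under 0.05; 12 against 2 months, 1428 of 18995 or 7.52%). DESeq2 called 1 gene, Onecut1, between 12 and 6 months and 20 between 12 and 2 months. Il33 (difference -0.93), Kcng1 (0.72), Car2 (-0.66), Sbsn (-0.56), Cd59a (-0.78), Penk (-0.63), Sec14l3 (-1.12) and Zfp488 (1.14) were the genes of those 20 that were also among the 60, and their edgeR adjusted p was between 0.168 and 0.331. Among the 60 genes 30 had an unadjusted p under 0.05 for the difference from 6 months and 37 for that from 2 months, genes that had been picked at 12 months.

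Against the cortex of the same mice, 1 gene passed for the difference of the genotype effect, 2610316D01Rik, a transcript with no named protein (edgeR adjusted p = 0.0423, 0.00522% of 19167 tested). Its log2 change was 0.41 (SE 0.07) in striatum and -0.09 (SE 0.07) in cortex. With the animal as a block, and without BAC-CAG animals 2 and 7, no gene passed, and DESeq2 called 11, of which 2610316D01Rik, Pkp2, Actn2, Tnnt2, Ttn, Shank3, Hacd2 and Zcwpw1 were among the 60. At an unadjusted p under 0.05 in edgeR the difference held for 41 of the 60 (6.92% of all tested genes), but the 60 were picked in these same striatal libraries, so nothing is read from that count. Actn2 had a log2 change of -0.62 in striatum and 0.02 in cortex, where its level was low (8.02 to 13.7 CPM in WT). Pkp2 had -1.0 in striatum and 0.08 in cortex, with 1.83 to 4.18 CPM in BAC-CAG cortex and 1.6 to 4.17 CPM in WT cortex.

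Levels of the 60 genes in striatum and cortex were compared in the 6-month WT mice, which are other animals and in which 66.2% of 17805 tested genes differed between the tissues. Of 41 fallen genes measured there 32 were higher in striatum, against 34.4% of all tested genes, and 5 were lower, against 31.6%. Their median log2 difference was 1.07, against 0.02 for all genes, and Penk (5.97), Abhd11os (4.24), Actn2 (4.17) and Sec14l3 (4.01) had the widest. BAC-CAG replicates 2 and 7, with cortical marker sums of 1735 and 2401 CPM against at most 983 CPM in the other libraries, are among the libraries in which the fallen genes were called, and without both 11 of the 42 passed; their part in this count was not tested. Of the 18 risen genes 9 were higher in striatum and 6 lower, with a median of 0.20.

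Against the BACHD line, 1 of 15361 genes passed for the difference of the genotype effect (0.00651%), Lars2, a mitochondrial leucyl-tRNA synthetase. Lars2 ran from 257 to 453 CPM in BAC-CAG libraries and from 270.4 to 455 CPM in WT (log2 0.08, edgeR adjusted p = 0.843), while in BACHD its log2 change was 2.85 (SE 0.20, edgeR adjusted p = 0.000512). Among the 60 genes 22 of the 52 measured had an unadjusted p under 0.05 for the difference between lines (5.72% of all tested genes), but they were picked in the same BAC-CAG and WT libraries, so nothing is read from that count.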

How the data were processed

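Striatal RNA was made into TruSeq libraries and read strand-specifically, per the labels. The values used are whole-number counts for each mouse gene, deposited by the authors. STAR, HTSeq and the build GRCm38 (mm10) are named in the submitters' processing notes. Tool versions and the strand setting: not given in the sources used here. Of the 48795 genes counted, 48349 were found in GENCODE M21, which gave positions. The libraries held 27.4 to 40.9 M counts. No pair of libraries in a group agreed within sampling noise.

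Counts were tested with edgeR 4.0.16 (R 4.3.3): TMM factors, filterByExpr by genotype, sex as a covariate, glmQLFit with its default (legacy) method and glmQLFTest, Benjamini-Hochberg adjustment and a threshold of 0.05. The SE of a log2 change is its size over the square root of F. A gene that passes is called. Levels are CPM with TMM factors. Differences between sexes, tissues, ages and lines were tested as interaction terms, each gene adjusted over all tested genes. Alternatives were DESeq2 1.42.0, limma 3.58.1 (voom with quality weights), other scaling, filters and covariates, and leaving out libraries. On simulated counts for this comparison (18065 genes) 64.9% of genes changed by 0.5 on the log2 scale and 87.8% of those changed by 1 were recovered, with 7 false calls.

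The animal code in the titles links the striatum and cortex of one mouse. Over the 16 animals the deviations of striatum and cortex had a median correlation of 0.148, with 10 above 0.1, and over the 8 WT animals at 6 months 0.364, with 8 above 0.1.

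Any called gene may be named. Values by library are given for the 12 fallen and 8 risen genes with the smallest p and a mean of at least 1 CPM, for Htt, and for up to 6 members of each of the 28 lists. Within a group each striatal library is a separate mouse, per the titles. The comparison, the lists and the named genes were chosen with earlier results of these data known, so no list is independent evidence. A list is described by counts and its median, with no test.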

Additional observations from a re-analysis of the deposited data

Results flagged for a closer look

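Each of 98 sets of 8 libraries (a gene with library values, or the mean log2(CPM + 1) of a list, in 1 genotype) was checked for a library far from the others, and 4 held one by Dixon's criterion of 0.526; chance gives about 1 in 20 sets. For choroid plexus and ependyma markers BAC-CAG replicate 1 stood at 3.89 and WT replicate 4 at 3.76, while the other 14 libraries lay between 1.42 and 2.3. For the circadian clock list WT replicate 5 stood at 6.44, and for cholesterol synthesis WT replicate 2 at 4.83.

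The genotype effect differed between groups for 2 genes in edgeR. For 2610316D01Rik the log2 change in striatum minus that in cortex was 0.50 (adjusted p = 0.0423). Both tissues came from the same animals, and no gene passed with the animal as a block or without BAC-CAG animals 2 and 7. For Lars2 the log2 change in BAC-CAG minus that in BACHD striatum was -2.78 (adjusted p = 5.25e-07).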

How the results depend on the processing

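The count of 60 genes (18 higher, 42 lower) became 274 (90 and 184) with DESeq2, 199 (52 and 147) with voom and quality weights, 15 (4 and 11) without BAC-CAG replicates 2 and 7 and 9 (2 and 7) with the cortical score. It was 59 with RLE factors, 79 without a filter on low counts and 58 without the sex covariate. The planned legacy method of edgeR is the default of the installed version, so it is the fit reported; the other method, added after seeing the data, gave 64, with all 60 among them. DESeq2 called 59 of the 60, and voom all 60. Leaving out 1 library gave 17 to 246 genes, 4 to 67 higher and 13 to 179 lower, with the extremes without BAC-CAG replicates 6 and 8; the cause was not tested. Across all these alternatives no called gene changed direction. Of 1463 pairs of a gene and a setting, which include those of Htt, 507 had a called gene that no longer passed. Htt passed in DESeq2 (adjusted p = 0.00557) and voom (adjusted p = 0.0347).

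With DESeq2 the difference between sexes called 6 genes, that between tissues 11, that between 12 and 6 months 1 and that between 12 and 2 months 20. The difference between tissues called 0 genes with the animal as a replicate block and 0 without BAC-CAG animals 2 and 7, and WT striatum against cortex at 6 months 12764 with the block and 11783 without. The share of called genes with the same direction was 96.7% at 6 months and 88.2% in BACHD, and 100% in both over the 15 genes called without BAC-CAG replicates 2 and 7, while at 2 months it was 76.3% and 73.3%. List medians under RLE factors moved by less than the spread of WT libraries in all 28 lists. Without BAC-CAG replicates 2 and 7, and with the cortical score, 24 kept within it and 4 moved by more: glutamate receptors, BDNF and TrkB signalling, cortical excitatory neuron markers and interneuron markers. At a depth of 27.4 to 40.9 M counts and 8 mice per group, changes of 1 or less on the log2 scale are found in part only. On simulated counts 64.9% of changes of 0.5 and 87.8% of changes of 1 were recovered.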
